A study of Homo sapiens with 18 samples.

Results

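The core spliceosome protein genes described here are 44 genes. The choice was made by name and not from their measured values, but earlier results of these data were known. The 44 are genes of the Sm, LSm, U1, U2, tri-snRNP and catalytic-step proteins. They comprise 6 genes of the Sm ring, 7 of the LSm ring, 3 of the U1 particle, 12 for the U2 particle and recognition of the 3′ splice site, 8 of the U5 and U4/U6 particles and 8 that act around the catalytic steps. All 44 were among the 39859 gene symbols listed, and all 44 passed the filter on low counts that left 13370 genes for testing. In sgERH cells, 33 of the 44 fell relative to sgAAVS1 cells when the 3 treatments were averaged, 2 rose and 9 did not pass the test. Of all genes tested, 23.2% fell and 25.5% rose in that comparison. The decreases of the members were small, and 0 members passed a 2-fold change, against 8.89% of all genes tested.

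The spliceosome removes introns from pre-mRNA and is assembled anew on each intron from small nuclear ribonucleoproteins (snRNPs), each built on a small nuclear RNA. The U1 particle pairs with the 5′ splice site and the U2 particle with the branch point, after which the U4/U6.U5 tri-snRNP joins and is remodelled by helicases into the catalytic machine. A ring of Sm proteins sits on the U1, U2, U4 and U5 RNAs, a ring of LSm proteins sits on the U6 RNA, and most of these proteins are needed by every dividing cell.

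The data were QuantSeq libraries, which read the 3′ ends of polyadenylated RNA, from RKO-iCas9 cells, a human colon carcinoma line in which doxycycline switches on Cas9. The question was how loss of ERH, a small RNA regulatory protein that binds splicing and export factors, affects mRNAs of cells given a cytokine. All cells expressed 1 guide constitutively from a lentiviral vector, were sorted for it and received 100 ng/mL doxycycline for 5 days. sgERH cells and the sgAAVS1 control cells, whose guide cuts a safe-harbour site, then received 25 ng/mL IFNγ, 10 ng/mL IL-1β or water (non-treated, NT) for 4 h, with 3 replicates, labelled biological, in each of the 6 groups.

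Per the study, the inducible Cas9 line was derived from a single cell, and the cells carrying a guide were sorted in bulk. The labels call the replicates biological without saying whether they were separate cultures, so that p-values measure only the spread between these libraries. ERH itself was read at 257 to 355 reads per 1000000 reads (CPM) in sgERH libraries and 515 to 592 CPM in sgAAVS1 libraries, a log2 fold change of -1.02 ± 0.07 (SE, adjusted p = 1.62e-12). Following the study, 15 libraries were used, 8 of sgERH (IFNγ 2, IL-1β 3, NT 3) and 7 of sgAAVS1 (IFNγ 3, IL-1β 2, NT 2), with 4987127 to 5986338 reads each. The 3 libraries left out (sgERH IFNγ replicate 2, sgAAVS1 IL-1β replicate 3 and sgAAVS1 NT replicate 1) stood apart from their groups, and the main counts are also given with them. They read ERH at 126, 676 and 52.7 CPM in that order, so that the control sgAAVS1 NT replicate 1 lay below every sgERH library used. Among the libraries used, sgERH IL-1β replicate 2 also stood apart, being the lowest or highest of the 8 sgERH libraries for 28 of the 44 members and for 53.2% of all genes tested. Of 8 leukocyte markers 1 passed the filter, CD68, with PTPRC at 0 reads and a summed level of 414 to 505 CPM in sgERH libraries and 391 to 428 CPM in sgAAVS1 libraries. Of 8 fibroblast and endothelial markers 0 passed. Of 6 markers for the line, the epithelial genes KRT8, KRT18, KRT19, CDH1 and EPCAM and the mesenchymal gene VIM, 4 were tested, CDH1 and KRT19 were at or near 0, and the summed level was 108 to 124 CPM in sgERH libraries and 128 to 160 CPM in sgAAVS1 libraries. KRT8, KRT18 and VIM fell on average, though 43.6% of KRT18 reads mapped to more than 1 place. EPCAM rose and stood at 14.0 to 21.1 CPM in sgERH libraries against 4.42 to 7.54 CPM in sgAAVS1 libraries. The part of these shifts in the results below was not tested.

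Levels below are CPM scaled by TMM factors, and changes are log2 fold changes of sgERH over sgAAVS1 from 1 edgeR model of the 6 groups, with Benjamini-Hochberg adjustment over all 13370 genes. Rose and fell are used of genes whose adjusted p was 0.05 or less. As the counts are shares of a library, fewer copies of a transcript per cell, fewer cells that hold it and more RNA of other kinds cannot be told apart. Over 20% of the reads of 8 members (LSM2, DHX16, PRPF31, U2AF1, PRPF8, SNRPG, SNRPA1 and SNRPE) mapped to more than 1 place, and the values of these 8 genes are uncertain.

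Together the 44 genes took 0.532% to 0.585% of the reads of the 8 sgERH libraries (median 0.579%) and 0.665% to 0.700% of the reads of the 7 sgAAVS1 libraries (median 0.677%), without overlap. Averaged over the 3 treatments, 33 members fell, against 23.2% of all genes tested, and 2 members rose, against 25.5% of all genes tested. The median log2 fold change was -0.39 over the members and 0.04 over all genes, and 38 of the 44 members lay below 0. The members are abundantly read, and of the 41 with a mean of at least 20 CPM 32 fell, against 36.0% of the 6581 tested genes at that level. Of the 36 members with at most 20% multimapping reads, 27 fell and 2 rose. In the fit of all 18 libraries 12 members fell and 0 rose, with a median of -0.40, and fewer of all genes tested were called as well, 8.73% lower and 12.1% higher.

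**Figure D1:**
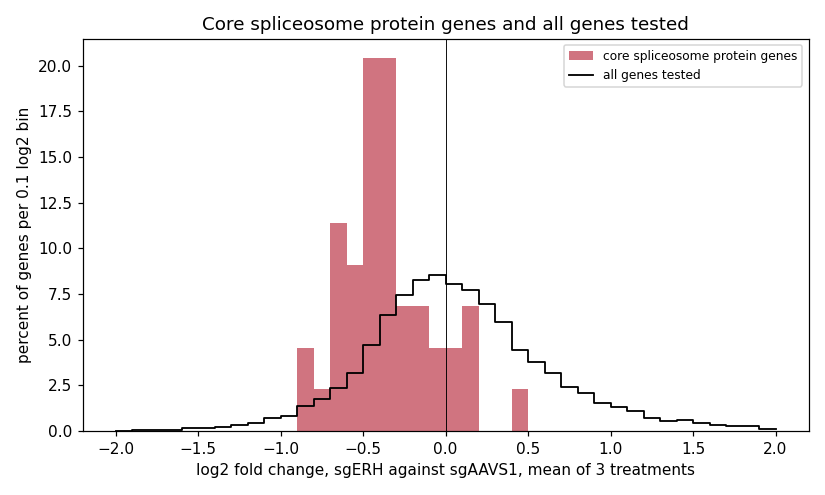
Distribution of log2 fold changes of sgERH over sgAAVS1, averaged over 3 treatments, in bins of 0.1 on the x axis and as percent of genes on the y axis, for the 44 members (bars) and all 13370 genes tested (line, of which 198 lie outside the plotted range). The members run from -0.81 to 0.46 with a median of -0.39, and the line is centred near 0.04.

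Within treatments each count compares 5 libraries, in a model whose scaling and estimate of the spread draw on all 15 libraries. With IFNγ 20 members fell (12.6% of all genes fell) and 2 rose (12.4% of all genes rose), with a member median of -0.36 and an all-gene median of 0.04. With IL-1β 23 members fell (13.1% of all genes) and 0 rose (13.3% of all genes), with a median of -0.44 against 0.02 for all genes. In non-treated cells 26 members fell (13.7% of all genes) and 0 rose (12.4% of all genes), with a median of -0.41 against 0.04. Where edgeR called 0 members higher, 1 was higher at an unadjusted p under 0.05 with IL-1β and 1 in non-treated cells, and DESeq2 called 0 in both.

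The counts within treatments moved with single libraries. With IFNγ, 12 members fell without sgERH replicate 1 (6.12% of all genes) and 13 without sgERH replicate 3 (7.68%), which leaves 1 sgERH IFNγ library each time, while 30 fell without sgERH IL-1β replicate 2 (17.6%). The 2 members that rose with IFNγ, CDC5L and PRPF3, were 0 without sgERH IFNγ replicate 1, without sgERH IFNγ replicate 3 or without sgAAVS1 IFNγ replicate 2. With IL-1β, 13 fell without sgAAVS1 replicate 2 (7.18% of all genes) and 27 without sgERH replicate 2 (14.8%). With all 18 libraries, 2 members fell with IFNγ (1.6% of all genes), 3 with IL-1β (1.46%) and 2 in non-treated cells (3.61%), 0 members rose in each (2.35%, 2.52% and 3.13% of all genes), and the member medians were -0.51, -0.55 and -0.12 in that order.

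By edgeR and by DESeq2, 0 members reached 2-fold at an adjusted p of at most 0.05, in any treatment or on average. Of all genes, 7.61% did so by edgeR with IFNγ, 8.48% with IL-1β, 8.24% in non-treated cells and 8.89% on average. At an unadjusted p under 0.05, 0 members passed 2-fold as well. CDC5L passed 2-fold with IFNγ when certain sgAAVS1 IFNγ libraries were left out. Its log2 fold change was 1.14 without replicate 1 (edgeR adjusted p = 0.0186) and 1.03 without replicate 3 (edgeR adjusted p = 0.0385). For 20 members, the highest of the 8 sgERH libraries lay below the lowest of the 7 sgAAVS1 libraries (9.56% of all genes), and for 0 members all sgERH libraries lay above (8.1% of all genes).

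**Figure D2:**
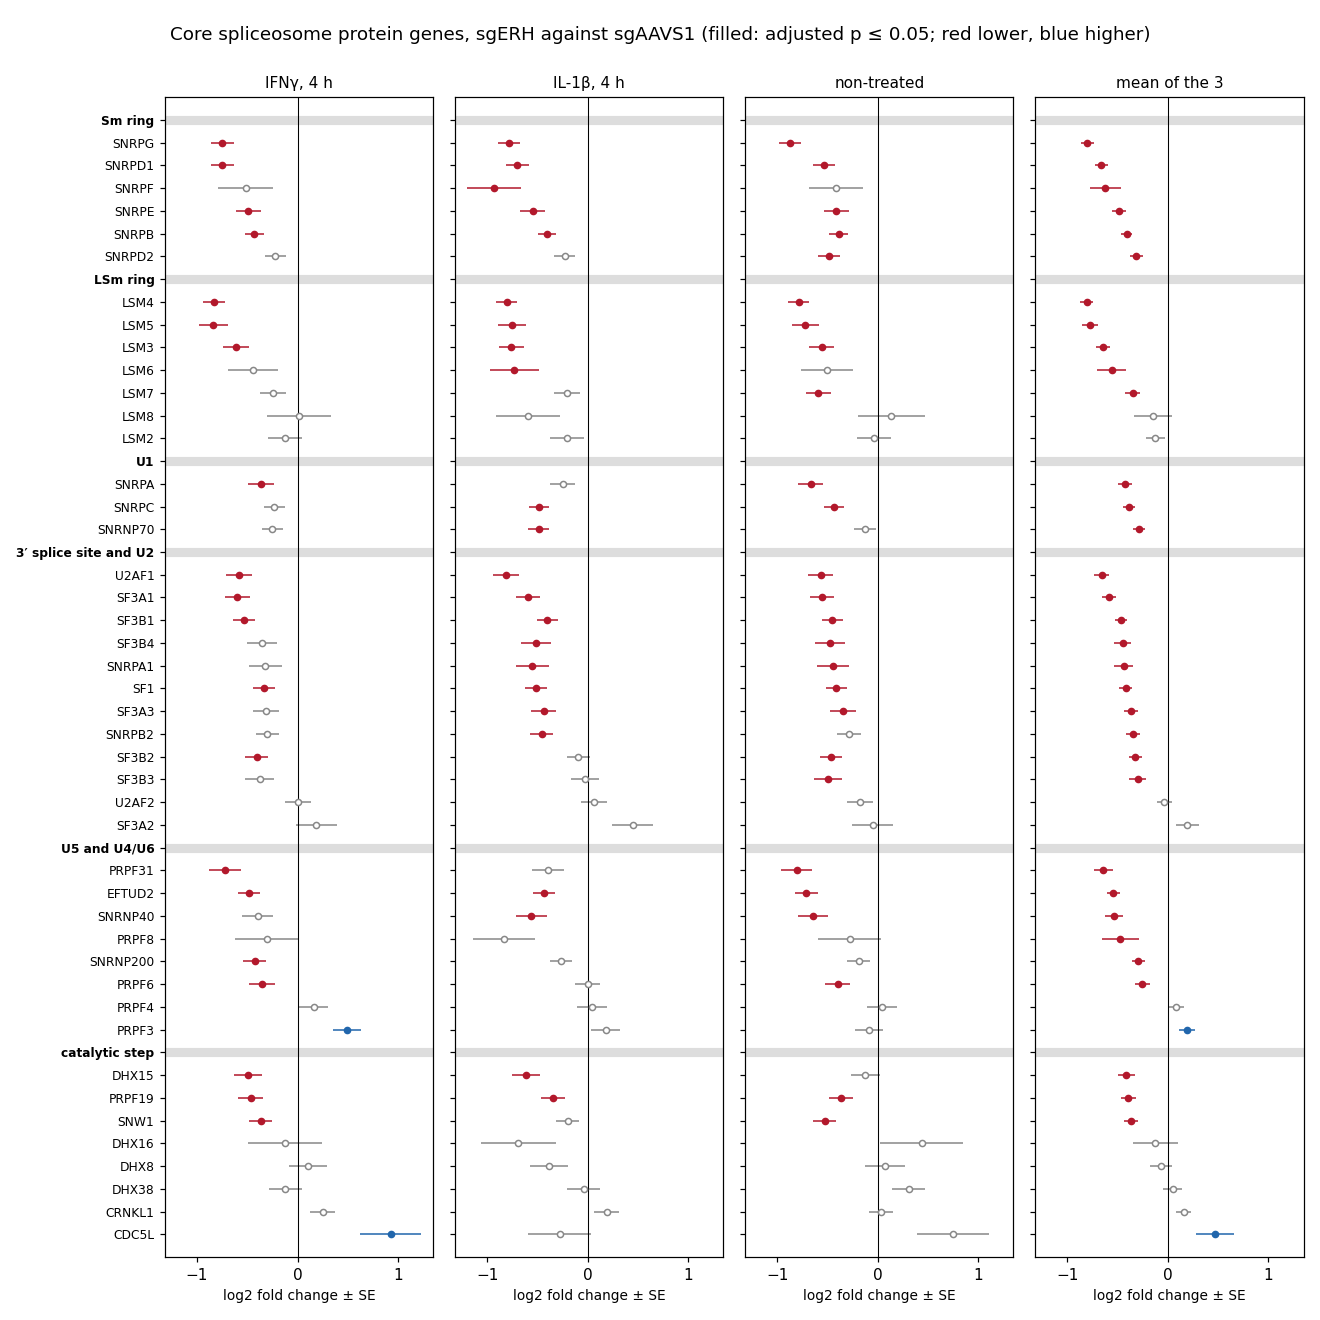
Log2 fold change of sgERH over sgAAVS1 (x axis, bars are SE) for each of the 44 members, grouped by role on the y axis and ordered by the average, with IFNγ, with IL-1β, non-treated and averaged. Filled points passed an adjusted p of 0.05 (red lower, blue higher), and the members of the Sm ring lie below 0 in every panel while those of the catalytic step lie on both sides.

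In each of the 3 treatments 13 members fell, against 6.81% of all genes tested, and 10 of these have at most 20% multimapping reads. They are SNRPB, SNRPD1, SNRPE and SNRPG of the Sm ring, LSM3, LSM4 and LSM5 of the LSm ring, SF1, U2AF1, SF3A1 and SF3B1 of 3′ splice site recognition, EFTUD2 of the U5 particle and PRPF19, a ubiquitin ligase that joins the spliceosome for activation. A further 11 members fell in 2 treatments and 8 in 1 treatment, and 12 in 0 treatments. These further counts were not set against all genes and only describe the members. The 3 treatments are separate libraries of both guides, but they enter 1 fit with a shared estimate of the spread.

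The Sm proteins form the heptameric collar around most spliceosomal small nuclear RNAs, which is loaded in the cytoplasm before the particle returns to the nucleus. All 6 Sm genes fell on average (23.2% of all genes tested), with a median log2 fold change of -0.55. SNRPB, which encodes SmB and its longer form SmB′ and is the most abundantly read member, stood at 609 and 661 CPM with IFNγ, 629, 649 and 634 CPM with IL-1β and 648, 659 and 625 CPM non-treated in sgERH libraries. In sgAAVS1 libraries SNRPB stood at 893, 861 and 817 CPM with IFNγ, 858 and 829 CPM with IL-1β and 856 and 832 CPM non-treated. The 8 sgERH values of SNRPB lay close together and below all 7 sgAAVS1 values, and the log2 fold change was -0.41 ± 0.05 (SE, adjusted p = 5.14e-07).

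SNRPD1 encodes SmD1, which pairs with SmD2 in an early step of ring assembly. In sgERH libraries SNRPD1 stood at 221 and 265 CPM with IFNγ, 254, 241 and 242 CPM with IL-1β and 307, 343 and 283 CPM non-treated. In sgAAVS1 libraries it stood at 372, 454 and 399 CPM with IFNγ, 409 and 389.5 CPM with IL-1β and 484 and 417 CPM non-treated. The groups did not overlap, the non-treated libraries were the highest of the sgERH cells, and SNRPD1 fell by 0.66 ± 0.07 on the log2 scale (SE, adjusted p = 3.7e-09). Its partner SNRPD2 (SmD2) fell by 0.31 ± 0.06 (adjusted p = 0.000134), with libraries that overlapped at 327 to 461 CPM in sgERH cells and 437.5 to 518.5 CPM in sgAAVS1 cells.

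SNRPE, SNRPF and SNRPG encode the SmE, SmF and SmG proteins, which form a trimer before they meet the other Sm proteins. SNRPE ranged over 83.0 to 117 CPM in sgERH libraries and 129 to 149 CPM in sgAAVS1 libraries, a log2 fold change of -0.48 ± 0.07 (adjusted p = 2.87e-06), and SNRPG over 79.1 to 91.9 CPM in sgERH libraries against 134 to 161 CPM in sgAAVS1 libraries, a log2 fold change of -0.80 ± 0.06 (adjusted p = 5.81e-11). Both are limited by shared sequence, with 39.9% of SNRPE reads and 82.6% of SNRPG reads multimapping. SNRPF fell by 0.62 ± 0.15 (adjusted p = 0.00614) and had the largest SE of the ring. Its sgERH values were 58.9 CPM in IL-1β replicate 2 and 120.4 to 142.5 CPM in the other 7 libraries, against 174 to 224 CPM in sgAAVS1 libraries. SNRPF passed the test on its own only with IL-1β, the treatment that holds the low library. SNRPD3, which encodes the remaining common Sm protein and is not a member, had a log2 fold change of -0.75 ± 0.08 (adjusted p = 1.41e-08).

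The LSm proteins LSm2 to LSm8 bind the end of the U6 RNA in the nucleus, and most of them also serve with LSm1 in cytoplasmic mRNA decay. On average 5 of the 7 LSm genes fell (23.2% of all genes tested), and the median was -0.56. LSM4 had the largest average decrease of the 44 members in the edgeR fit of 15 libraries, with SNRPG next to it. It stood at 133 and 138 CPM with IFNγ, 138, 118 and 139.5 CPM with IL-1β and 154, 133 and 148 CPM non-treated in sgERH libraries. In sgAAVS1 libraries LSM4 stood at 250.4, 231 and 242.5 CPM with IFNγ, 233 and 229 CPM with IL-1β and 243.5 and 255 CPM non-treated. The groups did not overlap, with the lowest sgAAVS1 library far above the highest sgERH library, and the log2 fold change was -0.81 ± 0.06 (SE, adjusted p = 2.31e-11), or 42.8% lower. The gene lies on chromosome 19 at 18306236 to 18323112 on the minus strand (GRCh38, GENCODE 44) and has 5 exons.

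LSM5 and LSM3 came next within the ring. LSM5 ranged over 38.7 to 57.3 CPM in sgERH libraries (median 48.6) and 76.5 to 88.1 CPM in sgAAVS1 libraries (median 79.5), a log2 fold change of -0.77 ± 0.08 (adjusted p = 8.87e-09). LSM3 ranged over 64.2 to 84.7 CPM in sgERH libraries (median 74.8) against 106 to 125 CPM in sgAAVS1 libraries (median 118), a log2 fold change of -0.64 ± 0.07 (adjusted p = 2.51e-08). Neither gene overlapped between the guides in any treatment. LSM6 (log2 fold change -0.56) and LSM7 (-0.35) also fell on average, but their libraries overlapped.

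LSM2 and LSM8 did not pass the test, with log2 fold changes of -0.12 ± 0.10 and -0.15 ± 0.19. LSM8 is the subunit that keeps the ring in the nucleus, and it varied widely, over 33.0 to 86.8 CPM in sgERH libraries and 48.9 to 90.8 CPM in sgAAVS1 libraries. LSM2 had 100% multimapping reads. Of 6 LSm genes outside this ring, 2 fell on average (23.2% of all genes tested) and 0 rose (25.5%). The 2 were LSM14A (-0.34 ± 0.10, 97.2% multimapping reads) and LSM1 (-0.22 ± 0.07), which encodes the subunit of the cytoplasmic ring.

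The 3 genes of this class encode proteins particular to the U1 particle, which pairs with the 5′ splice site. All 3 genes fell on average (23.2% of all genes tested). SNRPA (the A protein) had a log2 fold change of -0.43 ± 0.07, SNRPC (the C protein) of -0.38 ± 0.06 and SNRNP70 (the 70K protein) of -0.29 ± 0.06, with adjusted p of 1.77e-05, 5.51e-06 and 0.000349 in that order. SNRNP70 ranged over 145 to 187 CPM in sgERH libraries (median 167) and 187 to 223 CPM in sgAAVS1 libraries (median 207), groups that met at the edge without overlap. On its own it passed the test only with IL-1β, and SNRPA only with IFNγ and in non-treated cells.

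The 12 genes of U2 and the 3′ splice site encode proteins that read the branch point, the pyrimidine stretch and the AG at the intron's end. On average 10 of the 12 genes fell (23.2% of all genes tested), with a class median of -0.39. SF1, which binds the branch point first, ranged over 149 to 174 CPM in sgERH libraries (median 162) and 196 to 241 CPM in sgAAVS1 libraries (median 215), a log2 fold change of -0.42 ± 0.06 (adjusted p = 2.83e-06). U2AF1, which contacts the AG, stood at 163 and 172 CPM with IFNγ, 166, 109 and 147 CPM with IL-1β and 171, 183 and 196 CPM non-treated in sgERH libraries, and at 226 to 274 CPM in sgAAVS1 libraries. The groups did not overlap and the log2 fold change was -0.66 ± 0.07 (adjusted p = 3.47e-08), but 99.3% of U2AF1 reads were multimapping, and without such reads the call was lost (-0.59, adjusted p = 0.209). U2AF2, its partner on the pyrimidine stretch, did not pass the test and was read at 229 to 307 CPM in sgERH libraries and 240 to 343 CPM in sgAAVS1 libraries (-0.04 ± 0.07, adjusted p = 0.724).

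The SF3a and SF3b complexes clamp the U2 particle onto the branch point, and SF3B1 is the scaffold that is mutated in several blood cancers. SF3A1 stood at 76.2 and 80.5 CPM with IFNγ, 79.6, 66.5 and 82.3 CPM with IL-1β and 85.6, 84.2 and 73.1 CPM non-treated in sgERH libraries. In sgAAVS1 libraries it stood at 115, 125 and 116 CPM with IFNγ, 106 and 123 CPM with IL-1β and 119.0 and 118.8 CPM non-treated. SF3A1 fell by 0.58 ± 0.07 on the log2 scale (adjusted p = 9.79e-08), with nearly the same change in each treatment, at -0.60, -0.59 and -0.56 with IFNγ, with IL-1β and non-treated. SF3B1 ranged over 96.1 to 112 CPM in sgERH libraries (median 109) and 137 to 155 CPM in sgAAVS1 libraries (median 149), a log2 fold change of -0.46 ± 0.06 (adjusted p = 5.56e-07).

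The other subunits of these complexes did not all move alike. SF3A3 (-0.37), SF3B4 (-0.45), SF3B2 (-0.32) and SF3B3 (-0.30) fell on average, whereas SF3A2 stood at 19.9 to 41.7 CPM in sgERH libraries and 20.6 to 28.1 CPM in sgAAVS1 libraries (0.20 ± 0.12, adjusted p = 0.176). SF3B2 and SF3B3 were not called with IL-1β (-0.09 and -0.03), where sgERH replicate 2 read 406 and 161 CPM, above the other 7 sgERH libraries at 284 to 319.5 and 102 to 125 CPM. The U2 proteins SNRPA1 (-0.44, 62.4% multimapping reads) and SNRPB2 (-0.35) fell on average as well.

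In the U5 and U4/U6 particles 6 of 8 genes fell on average (23.2% of all genes tested), 1 rose (25.5%), and the class median was -0.38. EFTUD2, the GTPase of U5, stood at 84.9 and 76.5 CPM with IFNγ, 76.4, 81.0 and 82.6 CPM with IL-1β and 82.5, 78.6 and 78.4 CPM non-treated in sgERH libraries. In sgAAVS1 libraries EFTUD2 stood at 115, 117 and 106 CPM with IFNγ, 109 and 107 CPM with IL-1β and 124 and 137 CPM non-treated. The groups did not overlap, and the log2 fold change was -0.54 ± 0.06 (adjusted p = 8.11e-08). SNRNP40, the WD40 subunit of U5, fell by 0.54 ± 0.09 (adjusted p = 1.42e-05) and was read at 20.8 to 30.0 CPM in sgERH libraries against 34.9 to 43.7 CPM in sgAAVS1 libraries.

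PRPF8 holds the catalytic core of the spliceosome and SNRNP200 is the helicase that unwinds U4 from U6. PRPF8 fell with an adjusted p of 0.0491 (-0.47 ± 0.18), close to the threshold, and its libraries overlapped at 23.2 to 55.8 CPM in sgERH cells and 47.0 to 81.8 CPM in sgAAVS1 cells, with 84.4% of reads multimapping. SNRNP200 had a log2 fold change of -0.29 ± 0.07 (adjusted p = 0.000475) and PRPF6, which bridges U5 and U4/U6, of -0.25 ± 0.07 (adjusted p = 0.00611).

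Of the 3 U4/U6 genes, 1 fell on average (23.2% of all genes tested), 1 rose (25.5%) and 1 was not called. PRPF31 ranged over 24.5 to 40.0 CPM in sgERH libraries and 40.2 to 53.0 CPM in sgAAVS1 libraries (-0.64 ± 0.09, adjusted p = 1.41e-06), although 99.8% of its reads were multimapping. PRPF4 did not pass the test and was read at 41.6 to 54.8 CPM in sgERH libraries and 41.4 to 50.8 CPM in sgAAVS1 libraries (0.08 ± 0.08, adjusted p = 0.441). PRPF3, which binds PRPF4 in the U4/U6 particle, rose with IFNγ, at 98.4 and 100.1 CPM in sgERH libraries against 82.5, 60.3 and 68.8 CPM in sgAAVS1 libraries (0.49 ± 0.14, adjusted p = 0.00995). With IL-1β its change was 0.18 ± 0.14 (adjusted p = 0.378) and in non-treated cells -0.09 ± 0.14 (adjusted p = 0.68). The average of 0.19 ± 0.08 (adjusted p = 0.0488) was just past the threshold and was lost with DESeq2 (adjusted p = 0.0767).

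The genes of the catalytic step were mixed, with 3 of 8 lower and 1 higher on average and a median of -0.10. Of all genes tested, 23.2% were lower and 25.5% higher. The 37.5% lower in this class was near the 36.0% of tested genes with a mean of at least 20 CPM, although not all 8 reach that level. PRPF19 ranged over 73.8 to 102 CPM in sgERH libraries (median 87.7) and 105 to 127 CPM in sgAAVS1 libraries (median 112), a log2 fold change of -0.39 ± 0.07 (adjusted p = 4.73e-05). SNW1, which stays with the PRPF19-related proteins in the active spliceosome, fell by 0.37 ± 0.06 (adjusted p = 3.94e-05). DHX15, the helicase that takes apart the lariat spliceosome, ranged over 54.3 to 78.8 CPM in sgERH libraries against 70.8 to 106 CPM in sgAAVS1 libraries and fell by 0.41 ± 0.08 (adjusted p = 0.000135), but it did not pass the test in non-treated cells (-0.12 ± 0.14, adjusted p = 0.564).

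CDC5L, a partner of PRPF19 in 1 complex, was called higher with IFNγ (0.93 ± 0.30, adjusted p = 0.0252) and on average (0.46 ± 0.19, adjusted p = 0.0434). It was read at only 741 reads over the 15 libraries. Its values were 17.8 and 14.3 CPM with IFNγ, 8.31, 8.77 and 11.1 CPM with IL-1β and 11.0, 4.87 and 6.29 CPM non-treated in sgERH libraries, and 10.8, 5.04 and 9.63 CPM with IFNγ, 10.1 and 12.7 CPM with IL-1β and 4.62 and 4.17 CPM non-treated in sgAAVS1 libraries. The guides overlapped when all treatments are put together, the IL-1β change was -0.28 ± 0.31, and the average call was lost with DESeq2 (adjusted p = 0.0526).

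The remaining catalytic-step genes were not called. CRNKL1, a scaffold protein of the active spliceosome, had a log2 fold change of 0.16 ± 0.07 (adjusted p = 0.0689). The helicases DHX16, which acts before the first catalytic step, DHX38, which acts before the second step, and DHX8, which releases the mRNA, had log2 fold changes of -0.13 ± 0.22, 0.05 ± 0.09 and -0.07 ± 0.11. DHX16 was read at 2.10 to 8.28 CPM in the 15 libraries and only by multimapping reads, so that a change of the size seen in the other members was hardly detectable for it.

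**Figure D3:**
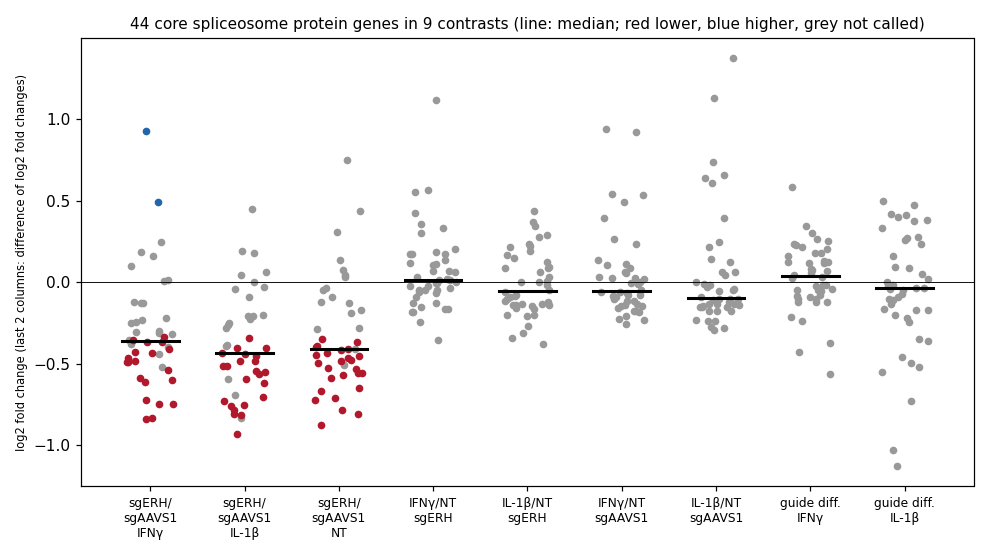
Log2 fold changes of the 44 members (points, y axis) in 9 contrasts (x axis), with the median as a line, for sgERH over sgAAVS1 with IFNγ, with IL-1β and non-treated, for each cytokine over NT within each guide, and for the difference between guides in the cytokine response. The medians are -0.36, -0.44 and -0.41 in the first 3 columns and between -0.10 and 0.04 in the other 6, where edgeR called 0 members in the model of the 6 groups and DESeq2 called 1, CDC5L for IL-1β in sgAAVS1 cells.

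In the edgeR model of the 6 groups neither cytokine gave a called change of a member. With IFNγ over non-treated, edgeR called 0 members in sgERH cells (0.0299% of all genes in either direction) and 0 in sgAAVS1 cells (0.98% of all genes), and with IL-1β over non-treated 0 members in sgERH cells (0.957% of all genes) and 0 in sgAAVS1 cells (0.92% of all genes). At an unadjusted p under 0.05 these comparisons held 5, 4, 6 and 6 members in the same order, against 6.64%, 9.37%, 14.0% and 12.6% of all genes, and DESeq2 called 0, 0, 0 and 1. The 1 was CDC5L, at a log2 fold change of 1.37 ± 0.38 in the edgeR fit (adjusted p = 0.0795, against 0.0453 by DESeq2) for IL-1β in sgAAVS1 cells. With edgeR fitted to the groups of a comparison alone, 0 members were called in sgERH cells. In sgAAVS1 cells that fit called 2 for IFNγ (DHX15 and LSM8, beside 2.66% of all genes) and 5 for IL-1β (LSM8, PRPF8, CDC5L, DHX15 and DHX8, beside 7.22% of all genes), all higher with the cytokine. Their log2 fold changes for IL-1β in that fit were 0.76, 0.66, 1.40, 0.42 and 0.64, with edgeR adjusted p of 6.91e-05, 0.000638, 0.00628, 0.0187 and 0.0496 in that order. In the model of the 6 groups, leaving out sgERH IL-1β replicate 2 gave 2 called members for IL-1β in sgAAVS1 cells, CDC5L and PRPF8 (5.36% of all genes), leaving out sgERH IL-1β replicate 3 gave CDC5L, and leaving out sgERH IL-1β replicate 1 gave U2AF1, lower with IL-1β in sgERH cells. The member medians were 0.01 and -0.05 for IFNγ in sgERH and sgAAVS1 cells, and -0.06 and -0.10 for IL-1β.

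The difference between the guides in the cytokine response was tested directly, as the change with a cytokine in sgERH cells minus that in sgAAVS1 cells. For IFNγ 0 members were called (0.247% of all genes) and for IL-1β 0 members (0.0% of all genes), with 1 and 9 members at an unadjusted p under 0.05, against 5.84% and 11.1% of all genes, and 0 and 0 called by DESeq2. The member with the smallest p for IFNγ was PRPF3, at 0.58 ± 0.20 (adjusted p = 0.614). The lower level of the members in sgERH cells was present with and without cytokine, and a difference in its size between treatments was not detected with 2 or 3 libraries a group.

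Other spliceosome proteins, 76 genes of which 75 were tested, were set beside the members. On average 34 of the 75 fell (23.2% of all genes tested) and 5 rose (25.5%). Their median was -0.20, against -0.39 for the 44 members. The largest decreases were in BUD13 (-1.02 ± 0.15), of the RES complex, CD2BP2 (-0.93 ± 0.08), which binds the U5 particle during its assembly, SNRPD3 (above), U2SURP (-0.73 ± 0.06), which associates with the U2 particle, and PPIH (-0.71 ± 0.07), a cyclophilin of the tri-snRNP. The 5 that rose were WBP4 (2.05 ± 0.56, a gene with few reads), RNPC3 (0.65 ± 0.11), a protein of the minor spliceosome, SYF2 (0.35 ± 0.09), SLU7 (0.26 ± 0.10), which acts at the second step, and PRPF18 (0.23 ± 0.08), which acts at the same step.

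The members differ widely in gene structure. The 33 members that fell on average had a median of 8 introns in their canonical transcript (range 2 to 44) and the other 11 a median of 13 (range 3 to 26), with median gene lengths of 18580 and 19892 bases (GENCODE 44). These values are a description and were not tested.

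The 100 bases before the RefSeq start of the members are shown for a few genes as a description. A part of these sequences in the changes was not tested. A RefSeq promoter (GRCh38.p14) was found for 40 of the 44 members, the first listed where a gene had several, and 4 motifs were searched on both strands. The ETS core CCGGAAG was found in 14 of the 40 (35.0%), in 5.95% of 27305 promoters of the same length and in 12.1% of the 9138 promoters of tested genes. The CCAAT box (CCAAT) was found in 14 (35.0%, against 18.7% of all and 22.1% of those of tested genes), the GC box (GGGCGG) in 15 (37.5%, against 31.3% and 53.8%) and the E-box (CACGTG) in 0 (against 3.46% and 5.06%). The ETS core stood in 10 of the 30 promoters of members that fell on average and in 4 of the 10 of the others. A match is a description of letters and not a bound site.

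The 5 sequences below are those with an ETS core that overlap no annotated exon, 4 from members that fell and 1 (DHX16) from a member that was not called. They run 5′ to 3′ on the gene's strand and end at the base before the start, with ETS core and GC box matches in capitals (either strand). PRPF6 lies at chr20:63981032-63981131 (plus strand), SF3B4 at chr1:149927804-149927903 (minus), SNRNP200 at chr2:96305547-96305646 (minus), SNRPG at chr2:70293459-70293558 (minus) and DHX16 at chr6:30673007-30673106 (minus). GENCODE 44 draws longer transcripts for SNRNP200 and SNRPG, so that these windows lie inside the annotated gene.
PRPF6: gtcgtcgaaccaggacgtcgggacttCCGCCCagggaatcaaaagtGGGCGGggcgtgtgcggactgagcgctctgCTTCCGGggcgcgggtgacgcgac
SF3B4: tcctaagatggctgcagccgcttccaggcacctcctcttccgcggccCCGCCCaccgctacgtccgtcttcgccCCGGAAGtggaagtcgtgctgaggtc
SNRNP200: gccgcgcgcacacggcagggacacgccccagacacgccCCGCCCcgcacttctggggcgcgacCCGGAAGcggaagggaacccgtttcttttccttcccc
SNRPG: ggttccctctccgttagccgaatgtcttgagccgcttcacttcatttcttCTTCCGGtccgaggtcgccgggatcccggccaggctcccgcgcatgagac
DHX16: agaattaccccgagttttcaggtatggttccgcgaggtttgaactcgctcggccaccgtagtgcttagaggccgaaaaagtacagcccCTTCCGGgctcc
The core reads CCGGAAG in SF3B4 and SNRNP200 and stands on the other strand, as CTTCCGG, in PRPF6, SNRPG and DHX16. The log2 fold changes on average were -0.25, -0.45, -0.29, -0.80 and -0.13 for PRPF6, SF3B4, SNRNP200, SNRPG and DHX16 in that order.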

How the data were processed

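RKO-iCas9 libraries (QuantSeq 3′ mRNA, single-end) were trimmed by the authors with Trim Galore 0.6.2 and checked with FastQC 0.11.8, per the submitters' processing notes, and counted with SlamDunk in 3′ end windows from 3-GAmES (GRCh38). The deposited values are read counts per gene symbol, not normalized, with a count of multimapping reads beside them. Such windows record the amount of 3′ end and not splicing. Counts of 15 libraries (4987127 to 5986338 reads) were tested with the quasi-likelihood F test of edgeR 4.0.16 (R 4.3.3, robust, TMM factors, filterByExpr, 1 model of the 6 groups, 13370 genes). SE is the log2 fold change divided by the square root of F. The 3 libraries that the study removed after principal component analysis were left out, and the fit of all 18 is an alternative.

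The members and all lists were chosen with earlier results of these data known. Members named with values were those called in the same direction in the 3 treatments, the 8 with the lowest and highest changes on average, those called past 2-fold or in a cytokine or interaction contrast, and 6 fixed genes (SF3B1, PRPF8, SNRNP70, SNRPB, U2AF1, DHX15), which gave 20 genes. Members with over 20% multimapping reads are marked as such, and other members are described by class. Other members given with values (such as PRPF4, U2AF2 and SNRPD2) were chosen after their values were seen. Alternatives were DESeq2 1.42.0, its size factors, no filter, counts without multimapping reads, the groups of a comparison alone, all 18 libraries, a replicate block and leaving out each library. Counting without members of over 20% multimapping reads, and the background of genes at 20 CPM or more, were added after seeing the data. The fit was also run on counts simulated from its own estimate of the spread, with few genes shifted. That run cannot show how the fit behaves where many genes change, as here. Sequences came from RefSeq and gene positions from GENCODE 44.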

Additional observations from a re-analysis of the deposited data

How the results depend on the processing

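The median change of the members in sgERH cells stayed below 0 under every alternative run, and the 20 members named by rule kept the sign of their average change in every fit that tested them. PRPF31 was not tested without multimapping reads, and the other 19 were. On average over treatments 33 members fell with DESeq2, with its size factors and without a filter, 31 of 41 tested without multimapping reads, and 32 to 33 when each library was left out, but 12 with all 18 libraries, where 8.73% of all genes fell. The fit of all 18 libraries was the alternative that moved most, with 2 members lower with IFNγ, 3 with IL-1β and 2 non-treated, and 0 higher with IFNγ and on average. With the groups of a comparison alone, 12 members fell with IL-1β (6.51% of all genes tested in that fit) and 1 rose non-treated (15.7%). Of all genes, 23.0% fell on average with DESeq2, 23.6% with its size factors, 13.0% without a filter and 23.1% without multimapping reads. Calls over all genes also moved when single libraries were left out, as given above for IFNγ and IL-1β. In non-treated cells, 10.8% of all genes fell without sgERH NT replicate 1 and 17.7% without sgERH IL-1β replicate 2. On average, 22.2% fell without sgAAVS1 IFNγ replicate 2 and 25.8% without sgERH IL-1β replicate 2. Leaving out each library gave 12 to 30 members lower with IFNγ, 13 to 27 with IL-1β and 18 to 28 non-treated, and members higher of 0 to 2 with IFNγ, 0 to 1 with IL-1β, 0 to 1 non-treated and 0 to 2 on average.

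The 2 members called higher on average, CDC5L and PRPF3, were near the threshold. The count was 0 with DESeq2, 0 without multimapping reads, 1 with DESeq2 size factors and 1 without a filter. For the cytokine comparisons, where 0 members were called, 1 was called without a filter for IFNγ in sgERH cells (0.148% of all genes). That fit also called 1 for IL-1β in sgERH cells (1.61%) and 1 for IL-1β in sgAAVS1 cells (1.5%). DESeq2 called 1 for IL-1β in sgAAVS1 cells (1.74%). The groups alone gave 2 for IFNγ and 5 for IL-1β in sgAAVS1 cells. Leaving out each library gave 0 to 1 for IL-1β in sgERH cells, 0 to 2 for IL-1β in sgAAVS1 cells and 0 to 0 for IFNγ in either guide and for both differences between guides. The cause of these shifts was not tested. Among the 20 named members, calls on average were lost for 11 with all 18 libraries, 3 without multimapping reads (CDC5L, PRPF3 and U2AF1) and 2 with DESeq2 (CDC5L and PRPF3).

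No pairing by replicate number was seen: of 30 pairs of same-numbered libraries 1 had a correlation of deviations over 0.1 (median 0.007, against -0.002 for other numbers). In groups of 2 libraries the deviations mirror each other, so this check could miss a pairing. With the replicate block 33 members fell and 0 rose on average (22.8% and 24.5% of all genes). In that fit 19 fell with IFNγ, 24 with IL-1β and 25 non-treated (11.8%, 13.4% and 13.1% of all genes). With 2 or 3 libraries a group and 4987127 reads in the smallest, changes of lowly read members such as CDC5L and DHX16 were measured with SEs of 0.19 and 0.22.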

Other observations

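The proteins that build snRNPs, such as the SMN complex and the methylosome that prepares Sm proteins, gave a further list of 17 genes. On average 7 of the 17 fell in sgERH cells relative to sgAAVS1 cells (23.2% of all genes tested) and 1 rose (25.5%). The median was -0.20. GEMIN4, a subunit of the SMN complex, had the largest decrease (-0.52 ± 0.10, edgeR adjusted p = 6.66e-05), and GEMIN6, another subunit, was the 1 that rose (0.32 ± 0.11, edgeR adjusted p = 0.0193). SMN1 and SMN2 were not called, and 100% and 98.7% of their reads were multimapping.

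In the 3 libraries left out of the fit, many of the core spliceosome protein genes, and many of all genes tested, lay outside the range of the 15 used. In sgERH IFNγ replicate 2, 23 of the 44 lay below and 8 above all 15 libraries as CPM of all reads (31.8% and 25.6% of all genes tested), and PRPF8 had 0 CPM. In sgAAVS1 IL-1β replicate 3, 6 lay below and 15 above (25.4% and 14.9% of all genes), and the other 23 lay within the range. In sgAAVS1 NT replicate 1, 28 lay below and 6 above (48.3% and 20.4% of all genes), and SF3B4 had 0.262 CPM. The summed share of the members was 0.449%, 0.787% and 0.401% of reads in these libraries in the same order.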
